A study of Mus musculus with 6 samples.

Results

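The genes described here encode the enzymes and regulators with which a cell makes cholesterol and fatty acids. They are 35 mouse genes chosen by name, of 35865 genes with a transcript in the deposited tables, and all 35 were found and passed the filter on low counts. By role they comprise 18 sterol synthesis enzymes, 12 fatty acid enzymes, 4 genes of the SREBP system and the sterol carrier gene Stard4. RNA came from macrophages sorted from digested hearts, on the C57BL/6J strain. The macrophages derived from donor blood progenitors that were either knocked out for Tet2 (Tet2 KO, 3 libraries) or wild type for it (Tet2 WT, 3 libraries). Tet2 encodes an enzyme that oxidises methylated cytosine in DNA. Per the series title the recipient mice were not conditioned, so host blood cells can remain, and the labels used here give neither the sort gate, the age, the treatment nor the part of Tet2 that was deleted. The labels do not tie the 3 libraries within each genotype to different mice. The p-values therefore refer to variation among the libraries as such, part or all of which may be technical.

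Cholesterol is built from acetyl-CoA through mevalonate, squalene and lanosterol. Fatty acids are built from the same acetyl-CoA, which is carboxylated and condensed into saturated chains that are then elongated, desaturated and joined to coenzyme A. The transcription factors SREBP-2 (gene Srebf2) and SREBP-1 (Srebf1) switch on the sterol and the fatty acid genes, SCAP (Scap) escorts them out of the endoplasmic reticulum when sterols are low, and INSIG-1 (Insig1) holds them back when sterols are high. In macrophages these pathways supply lipid for membranes, beside the lipid the cells take up by engulfing material.

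Libraries held 37349505 to 55771087 estimated counts. Macrophage markers were present in every library, but so were markers of fibroblasts, the matrix-producing cells of the heart. The 16 pan-macrophage markers summed to between 32349 and 38841 CPM (estimated counts scaled to a common library total) in Tet2 KO and between 20748 and 28024 CPM in Tet2 WT, and 14 of the 16 were called higher and 0 lower. The 22 fibroblast markers summed to between 2308 and 4288 CPM in Tet2 KO and between 17738 and 33081 CPM in Tet2 WT, and all 22 were called lower, with log2 fold changes between -3.75 and -2.56. The 14 adipocyte markers summed to between 84.7 and 103 CPM in Tet2 KO and between 58.6 and 88.2 CPM in Tet2 WT. Of the 14, 4 passed the filter and 0 of these were called. The defining markers Adipoq, Lep and Cidec stayed at or under 0.0864 CPM in each library, so the sum came from other genes of the list. In RNA from bulk sorted cells, fewer cells of a type and less RNA per cell cannot be told apart.

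Promoter sequence is shown for 3 members because SREBP acts through short promoter elements, together with the factors NF-Y and Sp1. The sequences are the 250 bases before the RefSeq start (GRCm38.p6), written 5′ to 3′ on the strand of the gene. Capitals mark the core of the sterol regulatory element (TCACNCCAC) and the NF-Y box (CCAAT), searched on both strands. Hmgcs1 has the 1 window, of 18 for sterol enzymes, that holds the sterol element. Fasn is a fatty acid enzyme gene called lower, and Acsl1 is the member called higher. Of the Acsl1 starts in RefSeq, the window with the sterol element is shown. It lies directly before transcript Acsl1-203, a minor one. That transcript held 2.11% of the gene's TPM (a share of transcripts corrected for length) in Tet2 KO and 0.748% in Tet2 WT. The most abundant transcript, Acsl1-201, held 50.6% and 54.1% and starts elsewhere, at 46471037. The windows are chr13:119690101-119690350 on the plus strand, chr11:120824548-120824797 on the minus strand and chr8:46490716-46490965 on the plus strand, and none overlaps an annotated exon.
Hmgcs1: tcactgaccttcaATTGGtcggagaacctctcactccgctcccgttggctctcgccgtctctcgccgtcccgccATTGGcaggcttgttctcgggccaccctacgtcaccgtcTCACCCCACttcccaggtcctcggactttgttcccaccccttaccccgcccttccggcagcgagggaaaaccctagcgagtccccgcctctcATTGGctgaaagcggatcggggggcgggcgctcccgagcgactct
Fasn: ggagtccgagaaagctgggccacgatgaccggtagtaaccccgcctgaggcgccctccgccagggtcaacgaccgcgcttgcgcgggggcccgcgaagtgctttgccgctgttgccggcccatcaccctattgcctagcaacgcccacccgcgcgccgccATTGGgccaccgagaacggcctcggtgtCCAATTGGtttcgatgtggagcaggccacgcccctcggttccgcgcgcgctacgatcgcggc
Acsl1: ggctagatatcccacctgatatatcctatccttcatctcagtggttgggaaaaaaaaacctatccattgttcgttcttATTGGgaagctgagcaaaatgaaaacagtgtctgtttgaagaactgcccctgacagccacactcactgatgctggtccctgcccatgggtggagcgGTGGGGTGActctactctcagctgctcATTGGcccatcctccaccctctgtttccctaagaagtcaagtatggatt

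RefSeq promoters matched 28 of the 35 members, with 36 start sites; Scd1, Scd2, Fads1, Fdps, Fdft1, Sqle and Stard4 were not matched. In Hmgcs1, an early enzyme gene of the mevalonate pathway, the sterol element began 137 bases before the start and NF-Y boxes lay at 237, 176 and 45 bases before it. The Fasn window held 3 NF-Y boxes, at 90, 62 and 59 bases before the start, of which the last pair overlap, and no match to the sterol core. Some genes have more than 1 window, so the 18 sterol enzyme windows come from 15 genes and the 11 fatty acid enzyme windows from 9. NF-Y boxes were found in 14 of 18 sterol enzyme windows (77.8%) and in 4 of 11 fatty acid enzyme windows (36.4%). Of the 15042 windows of tested genes 35.1% held one. The GC box GGGCGG, the letters that Sp1 binds, was found in 83.3% of sterol enzyme windows and in 54.5% of fatty acid enzyme windows, against 52.4% of windows of tested genes. The sterol core was rare everywhere, in 2 of the 36 member windows and in 0.917% of windows of tested genes. A match describes letters and is not evidence of binding.

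Of the 35 genes, 6 had less RNA and 1 had more RNA in Tet2 KO, a share near that of all tested genes. The largest differences were the falls of the fatty acid genes Scd1, Fads2 and Scd2. The test was edgeR's quasi-likelihood test over 16386 genes, and a gene was called at a Benjamini-Hochberg adjusted p under 0.05. It called 7 members, 1 higher and 6 lower in Tet2 KO. Of the 35, 14 had a positive log2 fold change, against 50.2% of all tested genes. The libraries of the genotypes did not overlap for 12 members, 5 higher and 7 lower, against 34.5% of all tested genes, 16.4% higher and 18.1% lower. Over all tested genes the calls were 16.2%, with 6.11% higher and 10.1% lower; over the members they were 20.0%. Fatty acid enzymes made up 5 of the 7 calls, with 1 of 12 higher and 4 lower (41.7% called), and sterol enzymes 1, with 0 of 18 higher and 1 lower (5.56%). The median log2 fold change was -0.33 over the fatty acid enzymes, 0.01 over the sterol enzymes and 0.00 over all tested genes. Without Tet2 WT replicate 1 only 3 members were called lower, Scd1, Scd2 and Fads2, and the fatty acid median was -0.19. It was -0.21 without Tet2 KO replicate 1 and -0.077 without both replicates 1.

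**Figure D1:**
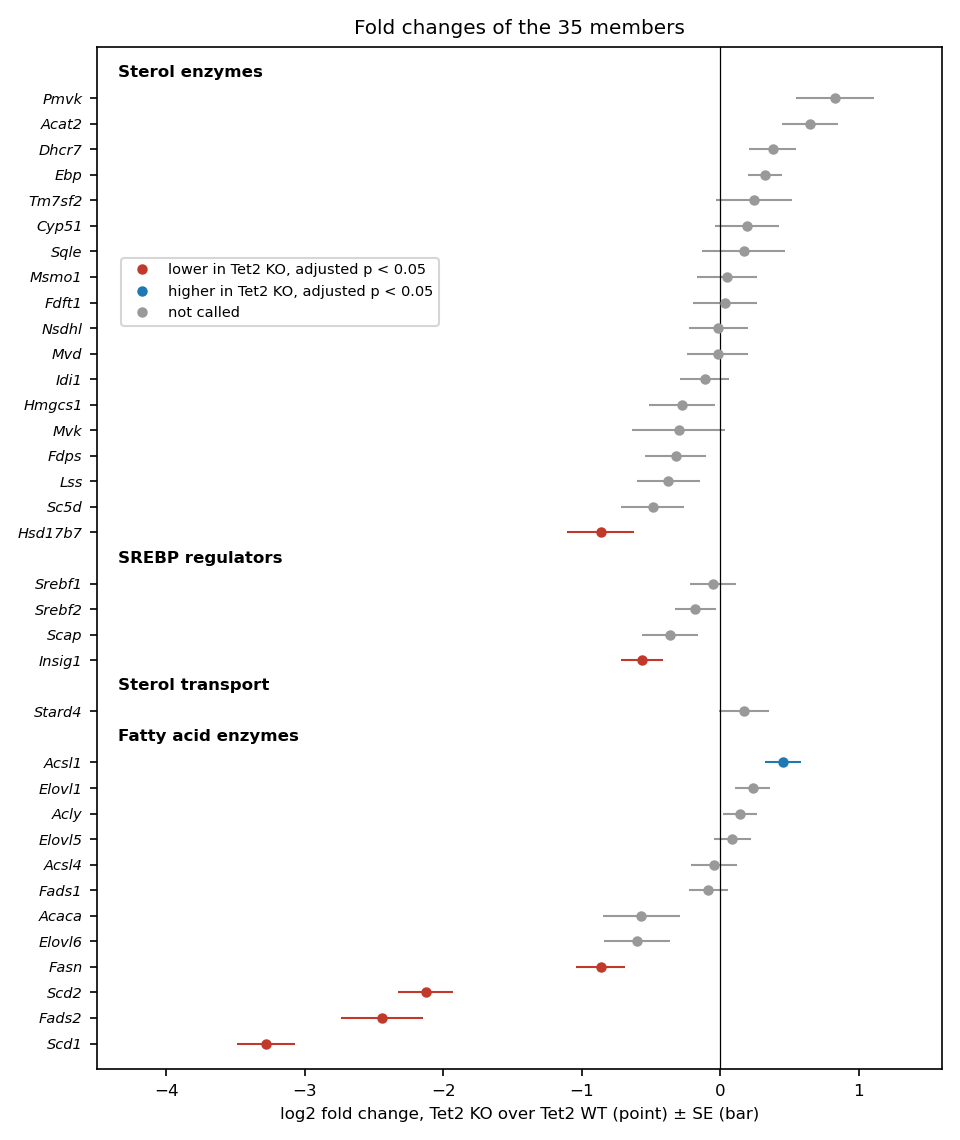
Log2 fold change of Tet2 KO over Tet2 WT for each of the 35 members (points), with the standard error as a bar, grouped by role. Scd1, Fads2 and Scd2 stand at -3.28, -2.44 and -2.13, while the sterol enzymes lie between -0.87 and 0.83.

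Among the members, Scd1, Fads2 and Scd2 had the largest log2 fold changes. Scd1 and Scd2 encode stearoyl-CoA desaturases, which place the first double bond in a saturated chain and so make oleate and palmitoleate. Scd1 (ENSMUSG00000037071.3) stood at 9.19, 7.99 and 6.01 CPM in Tet2 KO, against 89.8, 61.7 and 73.5 CPM in Tet2 WT. Every Tet2 KO library lay far below every Tet2 WT library. This gave -3.28 ± 0.21 on the log2 scale (SE; edgeR adjusted p = 8.66e-05), rank 4 by p among the genes tested.

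Scd2 (ENSMUSG00000025203.6) stood at 17.0, 19.0 and 16.2 CPM in Tet2 KO, against 95.5, 55.9 and 77.4 CPM in Tet2 WT. The groups again did not overlap, and the Tet2 WT libraries were the more spread. This gave -2.13 ± 0.20 on the log2 scale (edgeR adjusted p = 0.000169). Both genes lie on chromosome 19 of GRCm38, Scd1 at 44394455 to 44407879 on the minus strand and Scd2 at 44293674 to 44306864 on the plus strand, 87.6 kb apart. Their related neighbours Scd3 and Scd4 were near the limit of detection, at 1.06 and 0.212 CPM in Tet2 KO and 1.26 and 0.654 CPM in Tet2 WT, and neither was called.

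Fads2 encodes the delta-6 desaturase, which starts the conversion of linoleate and alpha-linolenate into long polyunsaturated chains. It stood at 7.61, 5.50 and 9.04 CPM in Tet2 KO, against 57.6, 27.8 and 34.9 CPM in Tet2 WT. No Tet2 KO library came near the lowest Tet2 WT library, and Tet2 WT replicate 1 was the highest of all. This gave -2.44 ± 0.30 on the log2 scale (edgeR adjusted p = 0.000657).

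Its neighbour Fads1, 81.1 kb away on chromosome 19, encodes the delta-5 desaturase of the same route. Fads1 stood at 118, 111 and 145 CPM in Tet2 KO, beside 138, 118 and 141 CPM in Tet2 WT, so that the groups overlapped. On the log2 scale it differed by -0.09 ± 0.14 (edgeR adjusted p = 0.755). Fads3, 2.65 kb from Fads2 on its other side and a relative of the desaturases, was called lower with a log2 fold change of -1.66 ± 0.23. Levels per transcript length put Fads1 well above Fads2 in both genotypes, at 51.9 ± 8.58 against 3.19 ± 0.738 TPM (a share of transcripts corrected for length) in Tet2 KO and 61.3 ± 7.97 against 19.9 ± 7.74 TPM in Tet2 WT (mean ± SD, n = 3 each).

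**Figure D2:**
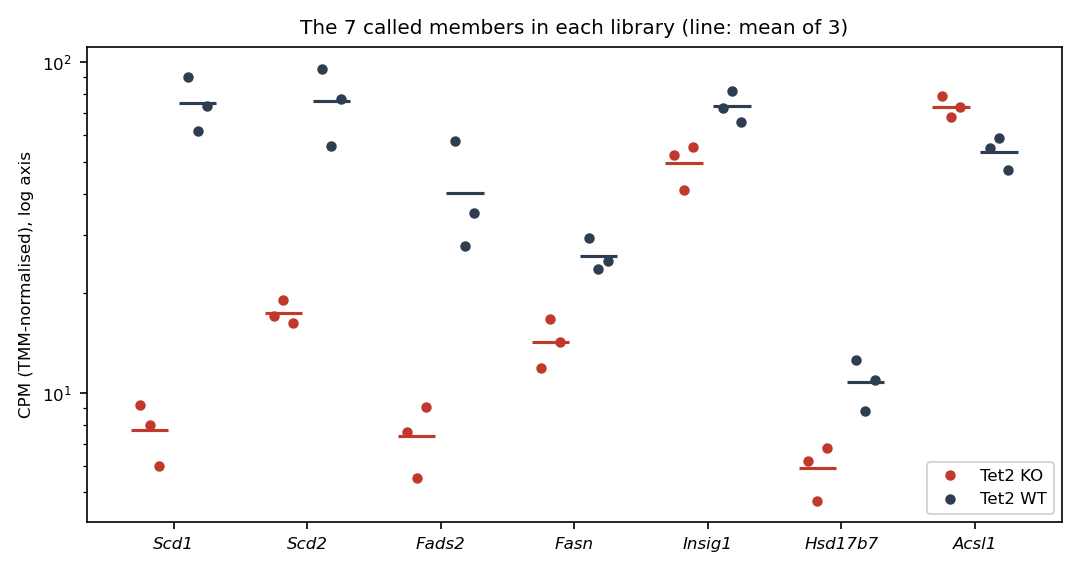
CPM of the 7 called members in each library on a log axis, with the mean of 3 libraries as a line, Tet2 KO left of Tet2 WT. For every gene the libraries of the genotypes do not overlap, and the gap is widest for Scd1.

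Upstream of the desaturases, Fasn, the fatty acid synthase that builds palmitate, fell. It stood at 11.8, 16.7 and 14.2 CPM in Tet2 KO, against 29.3, 23.6 and 24.98 CPM in Tet2 WT, with no overlap. This gave -0.86 ± 0.18 on the log2 scale (edgeR adjusted p = 0.00984). Without Tet2 WT replicate 1 the call was lost (edgeR adjusted p = 0.0613), and without both replicates 1 likewise (0.0971).

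The carboxylase Acaca, which supplies malonyl-CoA to Fasn, stood at 8.99, 17.3 and 12.4 CPM in Tet2 KO, beside 24.8, 18.4 and 14.3 CPM in Tet2 WT. Those ranges overlap and Acaca was not called (-0.57 ± 0.28, edgeR adjusted p = 0.211). Acly, the citrate lyase that makes cytosolic acetyl-CoA for both pathways, stood at 150, 125 and 140 CPM in Tet2 KO, beside 128, 117 and 131 CPM in Tet2 WT (0.14 ± 0.12, edgeR adjusted p = 0.520). The first step of the pathway was thus neither called lower nor separated between the genotypes.

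Of the elongases, Elovl6 extends the palmitate that Fasn makes, Elovl5 extends polyunsaturated chains and Elovl1 makes very long saturated chains. None was called. Elovl6 stood at 5.65, 6.42 and 6.32 CPM in Tet2 KO, beside 9.25, 11.3 and 7.42 CPM in Tet2 WT, without overlap (-0.60 ± 0.24, edgeR adjusted p = 0.123). Elovl1 went the other way, without overlap as well, at 140, 110 and 126 CPM in Tet2 KO and 103, 109 and 108 CPM in Tet2 WT (0.23 ± 0.13, edgeR adjusted p = 0.268). Per length Elovl1 was the most abundant member, at 145 ± 20.3 TPM in Tet2 KO, beside 135 ± 7.94 TPM in Tet2 WT (n = 3 each). Elovl5 had a log2 fold change of 0.09 ± 0.13.

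Acsl1 and Acsl4 encode acyl-CoA synthetases, which activate free fatty acids; Acsl4 favours arachidonate. Acsl1 was the member called higher, at 78.7, 68.4 and 72.9 CPM in Tet2 KO, against 54.9, 58.8 and 47.1 CPM in Tet2 WT. The gap between the groups was small but complete, with a change of 0.45 ± 0.13 on the log2 scale (edgeR adjusted p = 0.0433). The call was lost without Tet2 KO replicate 1 or 3 or Tet2 WT replicate 1 or 3, at edgeR adjusted p-values between 0.104 and 0.135, and on TPM values (limma adjusted p = 0.190 with a pseudocount of 1). Scaled to the pan-macrophage markers its sign turned, to -0.27. Acsl4 stood at 52.1, 76.97 and 57.8 CPM in Tet2 KO and 62.8, 72.4 and 57.8 CPM in Tet2 WT and was not called (-0.05 ± 0.17).

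The calls among the fatty acid enzymes can be set beside the fibroblast markers of the same libraries. The fold change of Scd1 lies within the range of the 22 fibroblast markers given above, those of Fads2 and Scd2 are smaller in size than the smallest of that range, and that of Fasn is smaller still. Among Tet2 WT libraries, replicate 1 was highest and replicate 2 lowest for Scd1, Scd2, Fads2, Fasn and the summed fibroblast markers alike. Among Tet2 KO libraries the fibroblast sum and Fads2 were both lowest in replicate 2. Scd1 was lowest in replicate 3, and Scd2 and Fasn were highest in replicate 2. The part of fibroblast RNA in these falls was not tested.

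Other genes of fatty acid metabolism included further falls. Of 35 further genes 32 were tested, with 0 called higher and 7 called lower (21.9%), against 6.11% higher and 10.1% lower over all tested genes, and the median log2 fold change was 0.02. Me1, the malic enzyme that supplies NADPH for chain building, stood at 5.96, 4.01 and 5.38 CPM in Tet2 KO, against 48.3, 23.4 and 30.0 CPM in Tet2 WT (-2.73 ± 0.29, edgeR adjusted p = 0.000301). Elovl4, an elongase of very long chains, had a log2 fold change of -2.53 ± 0.46, Acacb, the mitochondrial carboxylase, of -1.88 ± 0.35, Hacd1, a dehydratase of elongation, of -1.59 ± 0.30, and Gpam, which starts glycerolipid synthesis, of -1.03 ± 0.18. Gpam had the highest Tet2 KO mean of the 7, at 10.2 CPM. The fold change of Me1 lies within the range of the fibroblast markers given above. Those of Elovl4, Acacb, Hacd1 and Gpam are smaller in size than the smallest of that range. In both genotypes Me1 was highest in replicate 1 and lowest in replicate 2, as was the fibroblast sum. The part of fibroblast RNA in these further falls was not tested. Tecr and Hsd17b12, reductases of the elongation cycle, stood at 125 and 79.6 CPM in Tet2 KO and 113 and 78.7 CPM in Tet2 WT and were not called.

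The sterol branch as a whole did not separate by genotype. Its mean log2(CPM + 0.5) over the 18 enzymes was 4.28 ± 0.23 in Tet2 KO and 4.27 ± 0.17 in Tet2 WT (SD, n = 3 each), a difference of 0.01 ± 0.16 (SE). For the 12 fatty acid enzymes the mean was 4.99 ± 0.03 in Tet2 KO and 5.72 ± 0.13 in Tet2 WT, a difference of -0.73 ± 0.08. Sterol minus fatty acid within a library was -0.48, -0.97 and -0.70 in Tet2 KO, against -1.43, -1.39 and -1.54 in Tet2 WT, so the balance moved by 0.74 ± 0.15 towards the sterol genes, with no overlap. Leaving out Scd1, Scd2 and Fads2, which were picked after their values were seen, the other 9 fatty acid enzymes differed by -0.14 ± 0.06 and the balance by 0.14 ± 0.17. The pan-macrophage markers rose by 0.72 ± 0.13 on the same scale, and relative to them the sterol enzymes differed by -0.72 ± 0.22 and the fatty acid enzymes by -1.46 ± 0.20. In the fit scaled to these markers the median log2 fold change of all tested genes was -0.71.

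**Figure D3:**
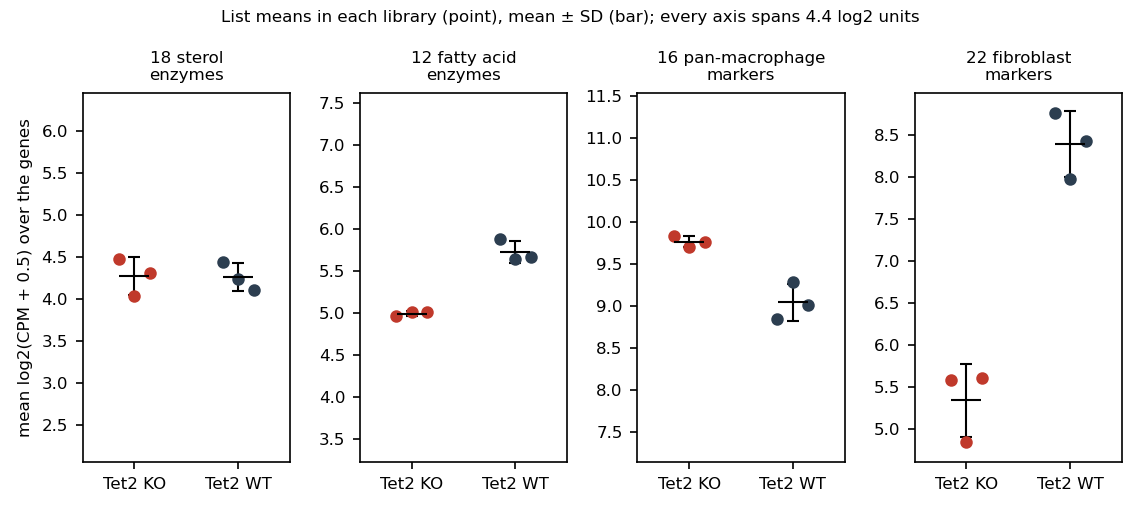
Mean log2(CPM + 0.5) over each gene list in each library (points) with mean ± SD (bars), Tet2 KO left of Tet2 WT; all panels span the same number of log2 units. The sterol enzymes overlap (means 4.28 and 4.27), the fatty acid enzymes are lower in Tet2 KO (4.99 and 5.72), the pan-macrophage markers higher (9.77 and 9.05) and the fibroblast markers lower (5.34 and 8.39).

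Along the mevalonate segment, the early enzymes went in different directions and none was called. Acat2, the thiolase that makes acetoacetyl-CoA, stood at 20.8, 13.7 and 17.97 CPM in Tet2 KO and 12.3, 10.3 and 10.8 CPM in Tet2 WT, without overlap (0.65 ± 0.20, edgeR adjusted p = 0.0575). Hmgcs1 stood at 50.6, 31.3 and 48.0 CPM in Tet2 KO and 69.5, 46.4 and 41.1 CPM in Tet2 WT (-0.28 ± 0.24, edgeR adjusted p = 0.509). Pmvk, which adds the second phosphate to mevalonate, had no overlap and differed by 0.83 ± 0.28 on the log2 scale (edgeR adjusted p = 0.0765), while the kinase Mvk and the decarboxylase Mvd had -0.30 ± 0.33 and -0.02 ± 0.22. DESeq2 called Acat2 and Pmvk higher, at adjusted p-values of 0.0208 and 0.0244.

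Idi1, the isomerase of the isoprene unit, stood at 52.8, 38.8 and 38.4 CPM in Tet2 KO and 56.1, 40.9 and 43.5 CPM in Tet2 WT (-0.11 ± 0.18, edgeR adjusted p = 0.744). Fdps and Fdft1, which make farnesyl diphosphate and squalene, had log2 fold changes of -0.32 ± 0.22 and 0.03 ± 0.23. Sqle, the epoxidase that commits squalene to sterols, stood at 27.8, 17.4 and 17.2 CPM in Tet2 KO and 26.8, 16.1 and 12.5 CPM in Tet2 WT (0.17 ± 0.30, edgeR adjusted p = 0.773). In each of these genes the libraries of the genotypes overlapped, and replicate 1 was the highest in Tet2 WT.

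After lanosterol, Hsd17b7 was the sterol enzyme called. It encodes the 3-ketosteroid reductase that takes part in removing the methyl groups at the fourth carbon. It stood at 6.19, 4.71 and 6.80 CPM in Tet2 KO, against 12.5, 8.83 and 10.9 CPM in Tet2 WT, with no overlap (-0.87 ± 0.24, edgeR adjusted p = 0.0387). The call held in only 1 of 6 leave-one-out fits, that without Tet2 WT replicate 2; in the others edgeR adjusted p-values were between 0.0662 and 0.163. On TPM values it was lost as well (limma adjusted p = 0.0675 with a pseudocount of 1).

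Ebp, the sterol isomerase, stood at 77.9, 64.2 and 70.5 CPM in Tet2 KO and 57.2, 56.8 and 55.8 CPM in Tet2 WT, without overlap but not called (0.32 ± 0.12, edgeR adjusted p = 0.107). Dhcr7, which makes cholesterol from its last precursor, stood at 29.7, 20.7 and 28.3 CPM in Tet2 KO and 21.6, 19.6 and 19.5 CPM in Tet2 WT (0.38 ± 0.17, edgeR adjusted p = 0.183). Tet2 KO replicate 2 was the low library in both. Without it Acat2, Ebp and Dhcr7 were called higher, with edgeR adjusted p-values of 0.0229, 0.0479 and 0.0406, so that 3 of 18 sterol enzymes were higher and 0 lower. In that fit 3141 of all 16869 genes tested were called (18.6%). Without Tet2 WT replicate 2 Pmvk was called higher (edgeR adjusted p = 0.0473). Scaled to the pan-macrophage markers all sterol enzymes but Pmvk had negative fold changes, 8 of them called, where the median of all tested genes moved to -0.71.

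The remaining post-squalene enzymes were Lss, the cyclase that closes the sterol rings, Cyp51 and Msmo1, which remove methyl groups, the reductase Tm7sf2, the dehydrogenase Nsdhl and the desaturase Sc5d. None was called, and their log2 fold changes lay between -0.49 ± 0.23 (Sc5d) and 0.24 ± 0.27 (Tm7sf2). Sterol enzymes shared their spread within a genotype. Tet2 KO replicate 1 was the highest Tet2 KO library for 14 of 18 sterol enzymes and Tet2 WT replicate 1 the highest Tet2 WT library for 13, against 37.8% and 35.1% of all tested genes. Tet2 KO replicate 2 was the lowest for 11, against 38.8% of all tested genes. Of the 12 fatty acid enzymes, replicate 1 was highest for 4 in Tet2 KO and for 5 in Tet2 WT, and Tet2 KO replicate 2 was lowest for 6. The difference in order between the branches was not tested.

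**Figure D4:**
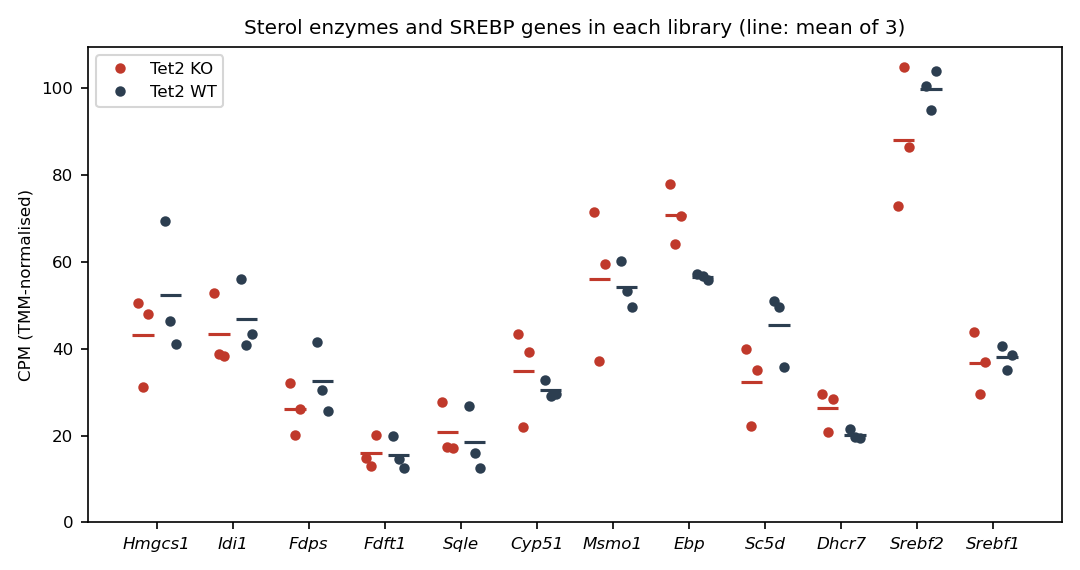
CPM of 10 sterol enzymes and of both SREBP genes in each library, with the mean of 3 as a line, Tet2 KO left of Tet2 WT, on a linear axis from 0. The libraries of the genotypes overlap for every gene shown except Ebp, which was not called. Over all 18 sterol enzymes 4 did not overlap, Acat2, Pmvk, Hsd17b7 and Ebp, against 34.5% of all tested genes.

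Of the SREBP system, Insig1 was called lower and the other genes were not called. Insig1 stood at 52.4, 40.9 and 55.4 CPM in Tet2 KO, against 72.4, 82.0 and 66.0 CPM in Tet2 WT, with no overlap (-0.57 ± 0.15, edgeR adjusted p = 0.0306). The call held in 1 of 6 leave-one-out fits, that without Tet2 WT replicate 3; in the others edgeR adjusted p-values were between 0.0531 and 0.0960.

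Srebf2 stood at 72.9, 105 and 86.3 CPM in Tet2 KO, beside 101, 95.0 and 104 CPM in Tet2 WT (-0.18 ± 0.15, edgeR adjusted p = 0.481). Srebf1 stood at 43.8, 29.6 and 36.8 CPM in Tet2 KO, beside 40.6, 35.2 and 38.5 CPM in Tet2 WT (-0.05 ± 0.16, edgeR adjusted p = 0.875). Both genes overlapped between the genotypes. Scap stood at 16.2, 26.1 and 23.6 CPM in Tet2 KO, beside 33.8, 25.1 and 26.0 CPM in Tet2 WT (-0.36 ± 0.21, edgeR adjusted p = 0.287). Stard4, which carries cholesterol between membranes, had 21.0, 18.8 and 14.98 CPM in Tet2 KO and 18.3, 15.3 and 15.03 CPM in Tet2 WT (0.17 ± 0.18). SREBP proteins are controlled by cleavage, which these RNA levels do not measure.

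Further genes of sterol metabolism were not called. Of 20 listed, 19 were tested and 0 were called in either direction by edgeR. An unadjusted edgeR p under 0.05 was reached by 4 of the 19, against 4734 of all 16386 tested genes. The median log2 fold change was -0.10. In the efflux and LXR genes 2 of 13 were called (15.4%), near the 16.2% of all tested genes. The gene called higher was the lipoprotein gene Apoe (0.72 ± 0.19, edgeR adjusted p = 0.0291). Its log2 fold change lies within the range of the 16 pan-macrophage markers, between 0.49 and 0.91. The gene called lower was the receptor gene Nr1h3 (-1.04 ± 0.23, edgeR adjusted p = 0.0131). The transporters Abca1 and Abcg1 had 0.20 ± 0.21 and 0.56 ± 0.29.

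Transcript estimates, which kallisto makes by dividing shared reads, added detail for the called genes. Scd1, Scd2 and Fads2 each came nearly whole from a single protein-coding transcript, with at least 94.3% of the TPM of the gene in either genotype. Acsl1 did not. Its protein-coding transcript Acsl1-201 was at 21.3, 15.7 and 18.2 TPM in Tet2 KO, beside 16.1, 17.0 and 14.4 TPM in Tet2 WT, which overlap, while the retained-intron transcript Acsl1-210 was at 14.5, 15.1 and 11.9 TPM in Tet2 KO, beside 9.81, 10.2 and 8.08 TPM in Tet2 WT, which do not. For Insig1 the protein-coding Insig1-201 was at 25.1, 18.8 and 26.6 TPM in Tet2 KO, against 38.4, 42.5 and 37.3 TPM in Tet2 WT, without overlap.

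Fasn divided between protein-coding transcripts. Fasn-205 was at 0.600, 2.13 and 1.31 TPM in Tet2 KO, against 3.37, 2.44 and 3.19 TPM in Tet2 WT, and Fasn-201 at 0.982, 0.305 and 0.655 TPM in Tet2 KO, beside 1.26, 1.17 and 0.925 TPM in Tet2 WT. Only the first did not overlap. For Srebf1 the main coding transcript Srebf1-201 stood at 11.4, 7.33 and 9.49 TPM in Tet2 KO, beside 10.3, 9.01 and 11.7 TPM in Tet2 WT, which overlap.

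Reads of some members can be shared with other genes. Counted as 31-base words of the main coding transcript that also occur in transcripts of another gene, 17 of the 35 members shared none, and the called members shared at most 8.30% (Scd1) and 6.86% (Scd2). Above 25% were Fdps (85.8%), Acaca (59.9%), Acat2 (50.5%), Fdft1 (47.5%) and Idi1 (32.0%). Acat2 shared most with Acat3 and Fdft1 with Ctsb, and values of these 5 genes depend on how kallisto divided reads.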

How the data were processed

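RNA-seq of 3 Tet2 KO and 3 Tet2 WT libraries was analysed. Per the submitters' processing notes, the authors trimmed reads with Trim Galore 0.6.4 and quantified transcripts with kallisto 0.44.0 (build GRCm38). Per the file headers, the authors deposited estimated counts, which are not normalized, and TPM values, scaled to a common total within each library, with transcript lengths in bases. No source used here names the annotation release. Of 118783 transcripts 116622 (98.2%) matched GENCODE M21 by identifier without version; the others held at most 0.671% of a library's estimated counts. Counts were summed per gene, rounded, filtered by edgeR's expression filter (16386 of 35865 genes), TMM-scaled and compared by genotype alone in edgeR 4.0.16 (R 4.3.3); each standard error is the fold change over the root of F. CPM values are TMM-normalized, except summed marker CPM, which uses each library's total. The test was tried on simulated data.

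Depth of 37349505 to 55771087 counts and 3 libraries a group set the precision. No pair of libraries of a genotype agreed within sampling noise (chi-square per gene of at least 63.95). Members and lists were chosen with earlier results of these data known, so lists are described by counts and medians, without a test. Values in each library are given for called members, the SREBP genes and fixed anchors (Hmgcs1, Sqle, Idi1, Dhcr7, Fasn, Acaca, Acly, Scd1, Scd2), and of other pathway genes for called ones by smallest p; other genes were named after their values were seen. Alternatives were RLE scaling, scaling to the pan-macrophage markers, no and a stricter low-count filter, DESeq2 1.42.0, limma voom and limma on log2(TPM + 1) or log2(TPM + 0.1) (limma 3.58.1), length-scaled TPM counts, the replicate number as a block, and libraries left out. Some genes of the wider pathway lists are not reported here by name.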

Additional observations from a re-analysis of the deposited data

How the results depend on the processing

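The falls of Scd1, Scd2 and Fads2 were called in all 17 alternatives run, with log2 fold changes from -4.03 to -2.95, -2.88 to -1.92 and -3.23 to -2.08. Fasn was called in 15, Insig1 in 9, Hsd17b7 in 8 and Acsl1 in 7. Same-numbered libraries correlated at 0.078, 0.173 and 0.0589 in their deviations from the group means, and differently numbered ones at -0.131 to 0.0674. Every library but Tet2 KO replicate 3 correlated best with its own number. That library correlated at 0.0674 with Tet2 WT replicate 1. The labels do not say that equal numbers mark pairs, and they were not taken as pairs. With the replicate block 0 members were called higher and 5 lower, and 0 fatty acid enzymes higher. The edgeR adjusted p was then 0.0649 for Insig1 and 0.0638 for Acsl1. Of all genes 2347 were then called, against 2653. The Tet2 KO minus Tet2 WT difference in the balance of sterol over fatty acid enzymes stayed between 0.62 and 0.87 in all alternatives. All of these included Scd1, Scd2 and Fads2. Without these genes the difference in the main fit was 0.14 ± 0.17. Scaling to the pan-macrophage markers put 0 members higher and 23 lower, 8 sterol enzymes lower, and 0 fatty acid enzymes higher and 11 lower, with medians of -0.72 for sterol and -1.05 for fatty acid enzymes, beside -0.71 for all genes; 43.5% of all genes were then called. It turned Acat2 (-0.10), Fdft1 (-0.71), Sqle (-0.61), Cyp51 (-0.57), Tm7sf2 (-0.45), Msmo1 (-0.71), Ebp (-0.40), Dhcr7 (-0.37), Acly (-0.59), Elovl1 (-0.49), Elovl5 (-0.64), Acsl1 (-0.27) and Stard4 (-0.56) negative; the scaling itself lowers every gene. DESeq2 called 3 members higher, 2 of them sterol enzymes. With limma on log2(TPM + 1), on log2(TPM + 0.1) and with length-scaled TPM counts, 0 members and 0 fatty acid enzymes were higher and 0 sterol enzymes lower; the median of all genes moved to -0.10, -0.11 and 0.00. Under log2(TPM + 1) Fdft1 (-0.15), Cyp51 (-0.059), Msmo1 (-0.16), Acly (-0.0070) and Elovl5 (-0.011) turned negative, under log2(TPM + 0.1) the same genes (-0.17, -0.067, -0.16, -0.0072 and -0.011), and with length-scaled TPM counts Fdft1 (-0.024). Under voom Mvd was at 0.0039 and Msmo1 at -0.015. Without both replicates 1 there were 0 members higher and 3 lower, 0 sterol enzymes lower, 0 fatty acid enzymes higher and a fatty acid median of -0.077; Mvk (0.24), Mvd (0.094), Tm7sf2 (-0.0078), Msmo1 (-0.084) and Acsl4 (0.051) changed sign. With a single library left out, members called ranged from 0 to 4 higher and 3 to 5 lower, sterol enzymes from 0 to 3 higher and 0 to 1 lower, and fatty acid enzymes from 0 to 1 higher, with a fatty acid median from -0.43 to -0.19. Uncalled genes changed sign there within ranges of -0.50 to 0.15 (Mvk), -0.14 to 0.069 (Mvd), -0.28 to 0.049 (Idi1), -0.17 to 0.25 (Fdft1), -0.091 to 0.55 (Sqle), -0.16 to 0.27 (Msmo1), -0.17 to 0.13 (Nsdhl), -0.22 to 0.070 (Acsl4) and -0.20 to 0.085 (Srebf1). The fits without libraries also had fewer samples, and the cause of these changes was not tested.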
